A study of Mus musculus with 14 samples.

Results

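The genes described here are those of the KEGG aminoacyl-tRNA biosynthesis set as the authors deposited it, and all 41 of its 41 genes were in the count table of 19525 genes. They comprised 21 cytosolic aminoacyl-tRNA synthetases, 17 mitochondrial synthetases and 3 enzymes that act on transfer RNA (tRNA) once an amino acid is attached to it (Mtfmt, Pstk and Sepsecs). Symbols are given as in the table, which mostly uses the older names (Iars for Iars1). Gars and Kars also encode the mitochondrial form of their enzyme and were counted as cytosolic. All 41 genes averaged 5 CPM or more (counts scaled to library size) over the libraries, as did 10227 genes of the table.

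RNA was sequenced from spheroids of 4T1, a mouse triple-negative mammary cancer line. The spheroids carried a lentiviral short hairpin RNA and came from polyclonal cells that had been selected with puromycin after transduction. The culture lasted 5 days in LLM, a lung-like medium that imitates the nutrients of lung interstitial fluid. Spheroids with a scrambled hairpin were grown without added aspartate (NoASP shSCR, n = 3, replicates 2 to 4) or with 700 µM aspartate (ASP shSCR, n = 4). The hairpins of the ASP shGRIN2D group (n = 3) targeted Grin2d, which encodes a glutamate receptor subunit of the NMDA type. Those of the ASP shDHPS group (n = 4) targeted Dhps, the enzyme that begins eIF5A hypusination, and both groups received 700 µM aspartate. Neither hairpin was sequenced without aspartate, and the labels name 1 knockdown line per gene. Libraries held 12731123 to 23231378 counts, and all 14 were made from messenger RNA of the cytosolic lysate that served as input for polysome profiling.

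A synthetase joins an amino acid to its tRNA, and the charged tRNA then delivers that amino acid to the ribosome. Most synthetases have separate nuclear genes for the cytosolic and the mitochondrial enzyme, and several cytosolic ones are held in a multisynthetase complex. When amino acids run short, uncharged tRNA activates the kinase GCN2, and the transcription factor ATF4 then raises genes of amino acid synthesis and uptake together with many cytosolic synthetases. ATF4 binds, with a CCAAT/enhancer-binding protein partner, to a composite element of the form TGATGNAAN.

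Promoter windows from the RefSeq table (build GRCm38.p6, 250 bases before to 50 bases after a gene's start) were found for 30 of the 41 genes. They are shown because a shared regulatory element is a known link among many of the cytosolic genes. Genes with no entry included Cars, Hars, Lars, Nars, Rars, Vars, Wars, Hars2, Pars2 and Sepsecs. Searched on both strands, TGATGNAAN was present for 5 of the 14 cytosolic genes with a window (Aars, Gars, Iars, Tars and Yars), 0 of 14 mitochondrial genes and 0 of 2 others. The element was present for 2.93% of the 12116 genes of the count table with a window, and in 3.95% of all 32851 windows. Of 13 amino acid response genes with a window, 4 had it (Asns, Chac1, Slc7a11 and Trib3). A match is a description of the letters and not evidence that a factor binds there. For each of the 5 synthetase genes 1 match follows, with those of Asns (asparagine synthetase) and Chac1 (a glutathione-degrading enzyme) for comparison. Each is read in the direction of the element, which is in capitals, with 10 flanking bases on either side.
Aars, chr8:111033840-111033868, minus strand: cagagcgctcTGATGAAAAgtgacccgct
Gars, chr6:55037960-55037988, minus strand: gcccggtgcaTGATGAAATagcgcagcca
Iars, chr13:49682126-49682154, minus strand: cgtctggaggTGATGCAATactgacagtg
Tars, chr15:11399656-11399684, plus strand: gctaaccagcTGATGCAACgggactcctg
Yars, chr4:129189896-129189924, plus strand: cgagctcagcTGATGCAACccgacgggac
Asns, chr6:7693214-7693242, minus strand: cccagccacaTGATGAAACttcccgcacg
Chac1, chr2:119351038-119351066, minus strand: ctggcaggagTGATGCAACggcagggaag

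The promoter of Iars is shown at greater length because Iars was the only gene of the 41 called in the main test. The 180 bases run from 150 bases before the annotated start to 30 bases after it (chr13:49681980-49682159, plus strand), and the capitals mark the element on the opposite strand, 7 to 15 bases into the transcript.
Iars promoter: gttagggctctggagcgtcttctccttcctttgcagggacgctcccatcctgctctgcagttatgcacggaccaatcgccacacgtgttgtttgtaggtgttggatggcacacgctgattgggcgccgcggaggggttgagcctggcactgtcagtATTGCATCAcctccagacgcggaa

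Before the comparisons, the hairpins and the libraries were checked. Dhps averaged 6.93 ± 1.74 CPM (SD, n = 4) in ASP shDHPS and 19.4 ± 2.28 CPM (SD, n = 4) in the ASP shSCR control, a called difference (adjusted p = 8.31e-06, edgeR). Grin2d was a low-count gene with 2.46 ± 0.590 CPM (SD, n = 3) in ASP shGRIN2D and 3.60 ± 0.423 CPM (SD, n = 4) in the ASP shSCR control, a difference that was not called (adjusted p = 0.516, edgeR). The epithelial keratin Krt8 stood at 1261 to 1787 CPM in every library. The leukocyte and endothelial markers Ptprc, Lyz2, Pecam1 and Cdh5 had at most 12 counts in any library, whereas Cd68 reached 16.0 CPM and the fibroblast marker Pdgfra 40.7 CPM. The other fibroblast markers looked for, Pdgfrb and Col3a1, and the endothelial marker Kdr were not in the count table. The summed level of 5 epithelial markers was 4024 to 4251 CPM in the shSCR libraries and 3116 to 3749 CPM in the hairpin libraries, and its part in the results was not tested. In bulk RNA, fewer cells of a kind and less RNA per cell cannot be told apart. On the first principal component, which held 32.3% of the variance, replicate 2 of ASP shSCR (-25.8) and replicate 1 of ASP shDHPS (27.5) lay at the 2 ends.

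Cytosolic synthetase messages were more abundant than their mitochondrial counterparts. Levels between genes were compared in ASP shSCR as CPM per kilobase of the longest protein-coding transcript (GENCODE M21, a length for all 41 genes), a scale that depends on which transcript is expressed. The cytosolic genes ran from 7.39 for Tarsl2, a second threonyl-tRNA synthetase, to 120.3 for Kars (lysine), with a median of 38.6 CPM per kilobase. The mitochondrial genes without Lars2 ran from 0.702 for Mars2 (methionine) to 13.6 for Iars2 (isoleucine), with a median of 4.18 CPM per kilobase. Of 19 pairs that serve the same amino acid, the cytosolic member was higher in 17. The exceptions were Tarsl2 against Tars2, with a ratio of 0.612, and Lars against Lars2, with a ratio of 0.228. Over the 18 pairs without Lars2, the median ratio of the cytosolic to the mitochondrial level was 9.20. The ratio was smallest among the other pairs for Iars against Iars2, at 2.03, and largest for Mars1 against Mars2, at 29.7. The Mars2 transcript used is 11.3 kilobases long, which lowers its value on this scale. The pairs are not all independent, because some genes enter several of them. Fars2 was paired with Farsa and Farsb, Tars2 with Tars and Tarsl2, and Eprs with Ears2 and Pars2.

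**Figure D1:**
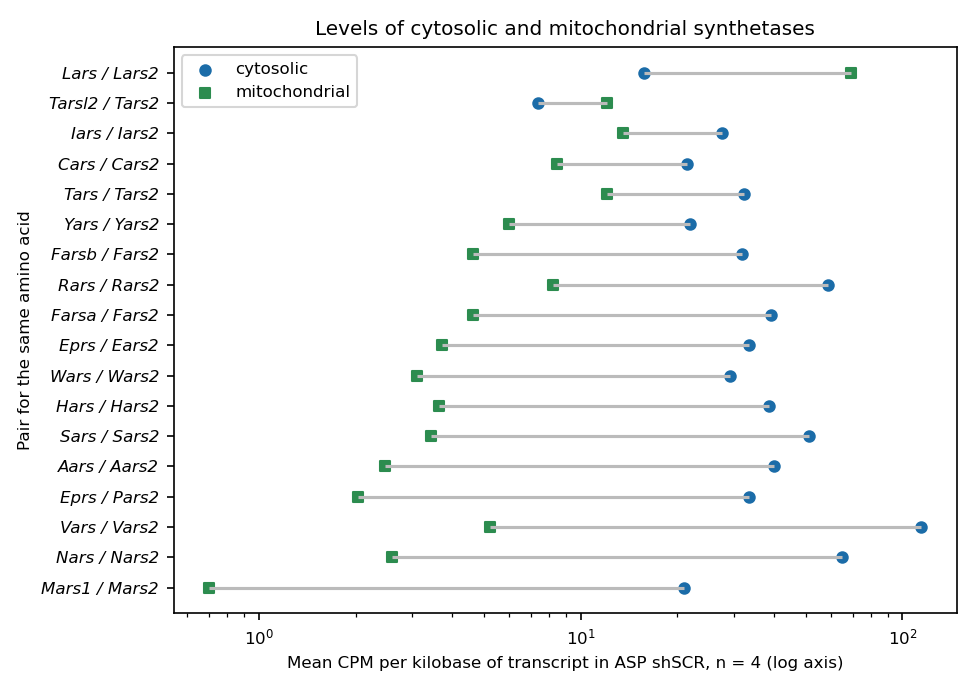
Mean level in ASP shSCR (n = 4) in CPM per kilobase of transcript, on a log axis, for 18 of the 19 pairs of a cytosolic (blue circles) and a mitochondrial (green squares) synthetase of the same amino acid. The cytosolic member is to the right in 16 of the 18 pairs drawn, and the mitochondrial member is to the right for Lars2 and for Tars2 against Tarsl2.

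The 41 genes varied between replicates about as much as other genes. The median SD of log2 CPM within groups was 0.15 over the 41 genes and 0.156 over the 10227 genes averaging 5 CPM or more. Kars varied least, with an SD of 0.0573 on the log2 scale. Lars2, the mitochondrial leucyl-tRNA synthetase, varied most, with an SD of 1.2, higher than 99.8% of those genes, and its highest library was 14 times its lowest. No other of the 41 exceeded a ratio of 3.02. Most mitochondrial genes had an SD above the median of the 10227 genes. After Lars2 came Mars2, higher than 96.3% of them, and Cars2 and Yars2 were among those below the median. Most cytosolic genes had an SD below that median, such as Iars, higher than 4.74% of the 10227 genes. The cytosolic genes above it were Wars, Vars, Farsb and Cars.

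The level of Lars2 was spread widely within every group. It stood at 65.2, 478 and 156 CPM in NoASP shSCR replicates 2 to 4. The 4 ASP shSCR libraries held 449.5, 217, 147 and 266 CPM. The 3 ASP shGRIN2D libraries held 105, 809 and 501 CPM, and the 4 ASP shDHPS libraries 911, 331, 167 and 166 CPM. Every group held both high and low libraries, and all groups overlapped. The level of Rn18s-rs5, a gene of 18S ribosomal RNA, chosen for this comparison after its values were seen, ran from 1453 to 14859 CPM. The 5 libraries highest in Lars2 were also the 5 highest in Rn18s-rs5, namely ASP shDHPS replicate 1, ASP shGRIN2D replicates 2 and 3, NoASP shSCR replicate 3 and ASP shSCR replicate 1. Libraries were made by selection of messenger RNA, and the part of ribosomal RNA in the Lars2 counts was not tested. Because Lars2 carried much of the mitochondrial total, the summed level of the 17 genes in ASP shSCR was 554 ± 123 CPM (SD, n = 4) with Lars2 and 284 ± 14 CPM without it.

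Aspartate supplementation left the tRNA charging genes without a called difference. Comparing ASP shSCR with NoASP shSCR asks whether the added amino acid changed the message of any charging enzyme. None of the 41 genes passed an adjusted p of 0.05, where 0% of all genes and 0% of genes averaging 5 CPM or more did (edgeR). None had an unadjusted p under 0.05 either, against 2.17% of all genes and 0.587% of genes averaging 5 CPM or more. DESeq2 called none of the 41, beside 0% of the genes to which it gave an adjusted p. None had groups that did not overlap, against 1.9% of genes averaging 5 CPM or more. The fitted log2 fold changes of the cytosolic genes had a median of -0.04, with the lowest, -0.10, for Rars (arginine), beside 0.00087 over all genes, and 4 of 21 were above 0. The mitochondrial median was -0.04, with 8 of 17 above 0, from -0.30 for Pars2 (proline) to 0.21 for Lars2. Of the 3 other enzymes, Pstk, which phosphorylates seryl-tRNA on the way to selenocysteine, had the largest value, 0.15. Mtfmt, which formylates the mitochondrial initiator methionyl-tRNA, had the smallest, 0.04. Samples of the same number deviated together in this comparison. With the replicate number as a block and only these 2 groups in the fit, 1 gene was called, Lars2, with a log2 fold change of 0.29 (adjusted p = 0.0311, edgeR). The same-numbered pairs of Lars2 differed in direction. Its level was higher with aspartate in replicate 2 (217 against 65.2 CPM) and replicate 4 (266 against 156 CPM). In replicate 3 it was lower with aspartate (147 against 478 CPM). The same fit called 67 of 19525 genes (0.343%). The block over all libraries called none of the 41 and 2 of 19525 genes.

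The enzymes that charge asparagine and glutamate were looked at individually. Nars, which charges asparagine in the cytosol, had a log2 fold change of 0.0019 (95% interval -0.18 to 0.18), and the mitochondrial Nars2 one of 0.05 (95% interval -0.29 to 0.39). Eprs, the bifunctional glutamyl-prolyl enzyme, had a log2 fold change of -0.05 (95% interval -0.24 to 0.14).

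The Dhps hairpin gave 1 called gene among the 41, against the scrambled control. This comparison, like those for aspartate and for the Grin2d hairpin, uses the ASP shSCR libraries, so the 3 are not independent. Iars, the cytosolic isoleucyl-tRNA synthetase, fell. It stood at 116, 126, 126 and 117 CPM in ASP shSCR and at 105, 96.1, 92.9 and 96.7 CPM in ASP shDHPS. Every ASP shDHPS library lay below every ASP shSCR library, and also below the NoASP shSCR libraries, at 121, 122 and 133 CPM, and the ASP shGRIN2D libraries, at 130.2, 113 and 123 CPM. The log2 fold change was -0.31 (SE 0.0791, adjusted p = 0.0249, edgeR), a level 0.805 times that of the control. That 1 of 41 genes, or 2.44%, was called compares with 4.22% of all genes and 6.94% of genes averaging 5 CPM or more, so the charging genes were not called more often than genes at large. At an unadjusted p under 0.05, 8 of 41 genes (19.5%) passed. The share was 19.3% of all genes and 28.4% of genes averaging 5 CPM or more. Groups did not overlap for 6 of 41 (14.6%), beside 16.7% of genes averaging 5 CPM or more. The Iars call was kept in 10 of 16 alternatives, with log2 fold changes from -0.35 to -0.29 and adjusted p from 0.000599 to 0.0867. It was lost when only the 2 groups were fitted, without both shSCR libraries numbered 2, and when replicate 2 or 3 of ASP shSCR or replicate 2 or 3 of ASP shDHPS was left out.

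**Figure D2:**
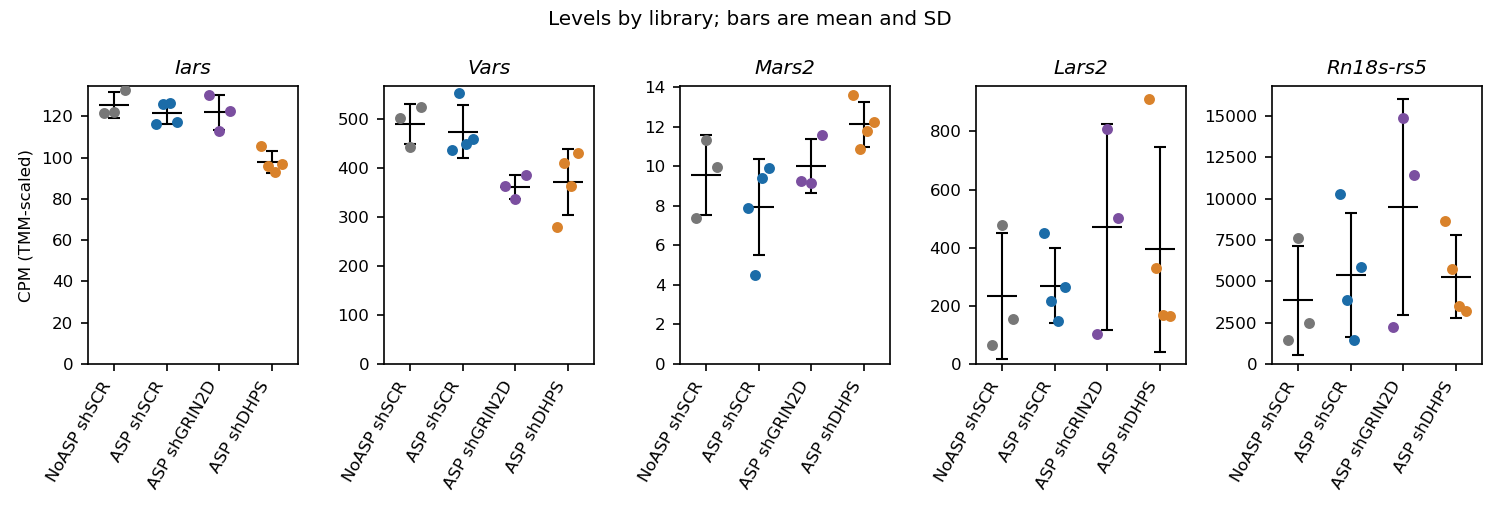
CPM of Iars, Vars, Mars2, Lars2 and Rn18s-rs5 by library, with 1 point per library, 4 groups on the horizontal axis, and the group mean with its SD in black. Iars is lower in all 4 ASP shDHPS libraries than in any other, Vars is lower in both hairpin groups than in ASP shSCR, and Lars2 and Rn18s-rs5 are spread within every group.

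Vars, the cytosolic valyl-tRNA synthetase, was lower with both hairpins but was not called in either comparison. It stood at 435, 553, 448 and 458 CPM in ASP shSCR, at 363, 336 and 385 CPM in ASP shGRIN2D and at 279, 410.0, 362 and 430.3 CPM in ASP shDHPS. Neither hairpin group overlapped ASP shSCR. The log2 fold change was -0.39 (SE 0.121, adjusted p = 0.161, edgeR) for the Grin2d hairpin and -0.35 (SE 0.112, adjusted p = 0.0777, edgeR) for the Dhps hairpin. Vars passed the threshold in 3 of 15 alternatives for Grin2d, with adjusted p from 0.0264 to 0.478, and in 4 of 16 for Dhps, with adjusted p from 0.00236 to 0.263. The difference between the hairpins was 0.04 (95% interval -0.22 to 0.29).

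Among the genes with higher fitted values after Dhps silencing, the largest was Mars2, the mitochondrial methionyl-tRNA synthetase, which was not called. It stood at 7.91, 4.51, 9.41 and 9.90 CPM in ASP shSCR and at 13.6, 10.9, 11.8 and 12.2 CPM in ASP shDHPS. All 4 ASP shDHPS libraries lay above all 4 control libraries, although NoASP shSCR reached 11.3 CPM and ASP shGRIN2D 11.6 CPM. The log2 fold change was 0.62 (SE 0.187, adjusted p = 0.0640, edgeR), and it passed in 5 of 16 alternatives, with adjusted p from 0.000314 to 0.190. Mars1, which charges methionine in the cytosol, was at 64.8, 54.0, 68.2 and 60.5 CPM in ASP shSCR and at 72.6, 69.0, 66.5 and 75.0 CPM in ASP shDHPS. The groups overlapped, with a log2 fold change of 0.19 (adjusted p = 0.232, edgeR). Mtfmt had a log2 fold change of 0.14 (95% interval -0.16 to 0.44). Sars, the seryl-tRNA synthetase, had the largest positive value of the cytosolic genes. It stood at 184, 195, 179 and 176 CPM in ASP shSCR and at 224, 197, 232 and 205 CPM in ASP shDHPS, without overlap, and its log2 fold change was 0.23 (SE 0.0809, adjusted p = 0.121, edgeR).

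As a group, the cytosolic synthetases had mostly positive fitted values after Dhps silencing. Their log2 fold changes had a median of 0.14, and 15 of 21 were above 0, beside a median of 0.0046 and 50.6% above 0 over all genes. The 6 below 0 included Vars, Iars, Eprs (-0.16), Tarsl2 (-0.12) and Qars (-0.04), the glutaminyl enzyme. The summed level of the 21 genes overlapped, at 2846 to 2975 CPM in ASP shSCR and 2826 to 3010 CPM in ASP shDHPS. Between libraries of these groups, the median log2 CPM of the class varied with an SD of 0.106. The median of the 17 mitochondrial genes was 0.04, with 11 above 0, from -0.17 for Sars2 (serine) to 0.62 for Mars2. Nars had a log2 fold change of 0.15 (95% interval -0.02 to 0.31) and Nars2 one of 0.04 (95% interval -0.27 to 0.36). Pstk, at 8.04, 7.53, 7.94 and 7.21 CPM against 9.27, 8.52, 10.4 and 8.72 CPM in ASP shSCR, did not overlap, and its log2 fold change was -0.27 (adjusted p = 0.267, edgeR).

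**Figure D3:**
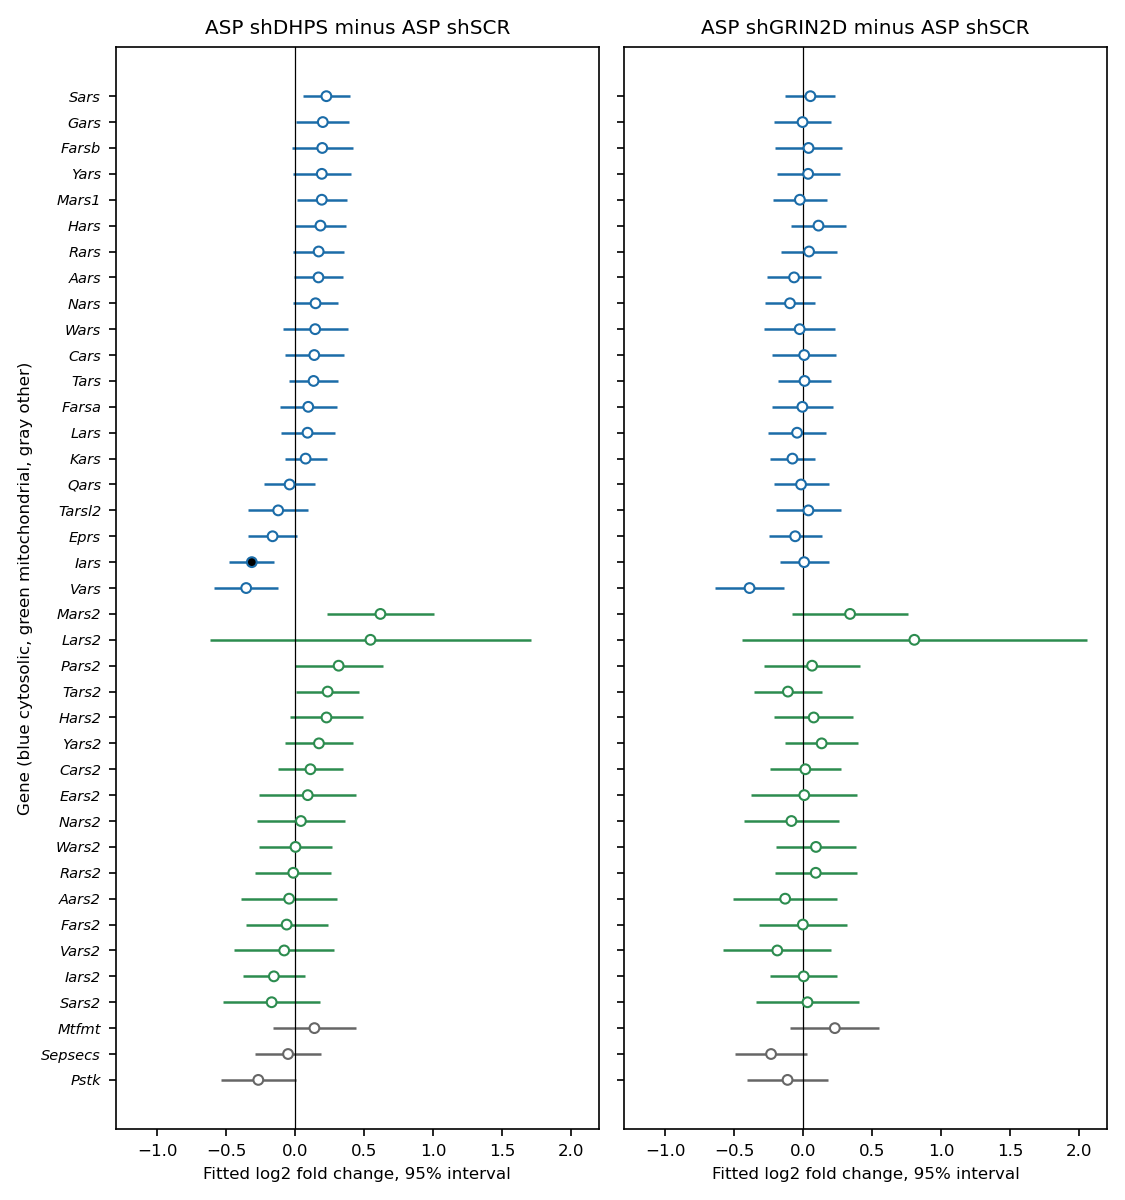
Fitted log2 fold change of 39 of the 41 genes with its 95% interval for the Dhps hairpin (left) and the Grin2d hairpin (right), both against ASP shSCR, with cytosolic genes in blue, mitochondrial genes in green and the 3 other enzymes in gray. The filled point is the called gene, Iars, at -0.31, and 15 of 20 cytosolic points drawn on the left lie above 0, as against 9 of 20 on the right.

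The genes of the multisynthetase complex did not move as a unit. Of its 8 synthetases (among them Eprs, Iars, Kars, Lars, Mars1, Qars and Rars), 4 had fitted values above 0 and 4 below 0 after Dhps silencing, from -0.31 for Iars to 0.19 for Mars1. The complex also holds the scaffold proteins Aimp1, Aimp2 and Eef1e1, whose log2 fold changes lay between 0.13 and 0.20, with none called. Over all 17 partner genes outside the set (complex scaffolds, the mitochondrial glutamyl-tRNA amidotransferase, editing enzymes, tRNA end and export factors and the selenocysteine route), 0 were called by edgeR in any comparison. In the Dhps comparison 3 of the 17 (17.6%) had an unadjusted p under 0.05. The shares given above were 19.3% of all genes and 28.4% of genes averaging 5 CPM or more. Of the 17, 13 were above 0 (76.5%, beside 50.6% of all genes), with a median of 0.13 and values from -0.24 to 0.52.

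The amino acid response genes gave 3 called rises among 14 listed genes in the same comparison (21.4%). The share called higher was 1.65% of all genes and 2.8% of genes averaging 5 CPM or more. The list was chosen with earlier results of these data known. All 14 had values above 0, beside 50.6% of all genes, with a median log2 fold change of 0.18. Chac1 stood at 10.3, 11, 8.67 and 8.72 CPM in ASP shSCR and at 22.7, 19, 23.6 and 19.2 CPM in ASP shDHPS, without overlap. Its log2 fold change was 1.12 (SE 0.135, adjusted p = 6.40e-05, edgeR), and it was called in all 16 alternatives. Ddit3, which encodes the stress transcription factor CHOP, rose by 0.76 on the log2 scale (SE 0.187, adjusted p = 0.0217, edgeR; called in 13 of 16 alternatives). Replicate 2 of ASP shSCR, at 21.7 CPM, overlapped the ASP shDHPS libraries, at 21.4 to 29.2 CPM. Slc3a2, the heavy chain of amino acid transporters, rose by 0.31 (SE 0.0869, adjusted p = 0.0420, edgeR; called in 9 of 16 alternatives). Of the 12 cytosolic synthetases listed as ATF4 targets, 10 had values above 0 with none called higher, and the exceptions were Iars, which was called lower, and Eprs. Their median was 0.15. The 9 cytosolic genes outside that list had a median of 0.08, with 5 above 0. Among the 5 synthetase genes with the element shown above, the log2 fold changes were 0.17 for Aars, 0.20 for Gars, 0.13 for Tars, 0.19 for Yars and -0.31 for Iars. Genes whose window lacked the element included Sars (0.23), Mars1 (0.19), Qars (-0.04), Tarsl2 (-0.12) and Eprs (-0.16). Whether the element goes with these values was not tested.

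The Grin2d hairpin gave no called gene. None of the 41 passed an adjusted p of 0.05 in edgeR, beside 1.16% of all genes and 1.89% of genes averaging 5 CPM or more. DESeq2 also called 0 of the 41, beside 3.48% of the genes to which it gave an adjusted p. At an unadjusted p under 0.05, 1 gene passed (Vars, 2.44% of the 41), beside 10.4% of all genes and 13.4% of genes averaging 5 CPM or more. Groups did not overlap for 4 genes, among them Vars, Hars and Mtfmt, or 9.76% beside 17.1% of genes averaging 5 CPM or more. Both shares were below those of genes at large. Hars (histidine) had the largest positive cytosolic value, 0.11, and Mtfmt one of 0.23. The cytosolic median was -0.0075, with 9 of 21 above 0, and the mitochondrial median 0.01, with 11 of 17 above 0. Over all genes the median was 0, with 49.1% above 0. The largest mitochondrial value was that of Lars2, 0.80, whose 95% interval ran from -0.45 to 2.06. It was 0.16 without ASP shGRIN2D replicate 2 and 1.28 without ASP shGRIN2D replicate 1, the extremes over 15 alternatives. The lowest mitochondrial value was that of Vars2 (valine), -0.19. Sepsecs, which converts phosphoseryl-tRNA to selenocysteinyl-tRNA, had a value of -0.23 (adjusted p = 0.534, edgeR). None of the 14 amino acid response genes was called, and 5 were above 0.

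The direct comparison of ASP shDHPS with ASP shGRIN2D set the hairpins against each other, with the spread estimated from all 14 libraries. It uses the same 4 ASP shDHPS libraries as the comparison with the scrambled control, so it is not a second, independent result. Iars was the called gene, lower with the Dhps hairpin, with a log2 fold change of -0.32 (SE 0.0855, adjusted p = 0.0431, edgeR). The 4 ASP shDHPS libraries, at 92.9 to 105 CPM, lay below the 3 ASP shGRIN2D libraries, at 113 to 130.2 CPM. The call was kept in 5 of 14 alternatives, with log2 fold changes from -0.37 to -0.27 and adjusted p from 0.00171 to 0.274. It was lost with library size alone, in both fits of only the 2 groups (with and without the replicate block), without any 1 of the ASP shGRIN2D libraries and without ASP shDHPS replicate 2, 3 or 4. The 1 called gene of 41 (2.44%) stands beside 2.82% of all genes and 4.63% of genes averaging 5 CPM or more. At an unadjusted p under 0.05, 5 genes passed (12.2%), beside 14.8% of all genes and 20.5% of genes averaging 5 CPM or more. Groups did not overlap for 9 genes (22%), beside 21.5% of genes averaging 5 CPM or more. The share without overlap was near that of genes at large, and the share with an unadjusted p under 0.05 was below it.

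Nars and Tars2 had the largest positive differences between the hairpins in their classes, and neither was called. Nars stood at 169.9, 161 and 169.8 CPM in ASP shGRIN2D and at 215, 181, 200.2 and 195 CPM in ASP shDHPS, without overlap. The log2 difference was 0.25 (SE 0.0858, adjusted p = 0.151, edgeR; called in 2 of 14 alternatives). Tars2, the mitochondrial threonyl enzyme, stood at 35.4, 34.9 and 37.9 CPM in ASP shGRIN2D and at 49.9, 42.8, 48.7 and 42.2 CPM in ASP shDHPS. The groups did not overlap, and the log2 difference was 0.35 (SE 0.120, adjusted p = 0.142, edgeR; called in 2 of 14 alternatives). The cytosolic median was 0.13, with 16 of 21 above 0, and the mitochondrial median 0.09, with 11 of 17 above 0. Over all genes the median was 0.011, with 51.4% above 0. With the Dhps hairpin, 1.2% of all genes and 2.1% of genes averaging 5 CPM or more were called higher. Among the 14 amino acid response genes, 4 were called higher (28.6%). They were Chac1 (1.13, adjusted p = 8.88e-05, edgeR), Ddit3 (0.78, adjusted p = 0.0402), Mthfd2, a mitochondrial folate enzyme (0.57, adjusted p = 0.0363), and Phgdh, the first enzyme of serine synthesis (0.35, adjusted p = 0.0363). Chac1 was called in all 14 alternatives, Ddit3 in 7, and Mthfd2 and Phgdh in 8 each.

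**Figure D4:**
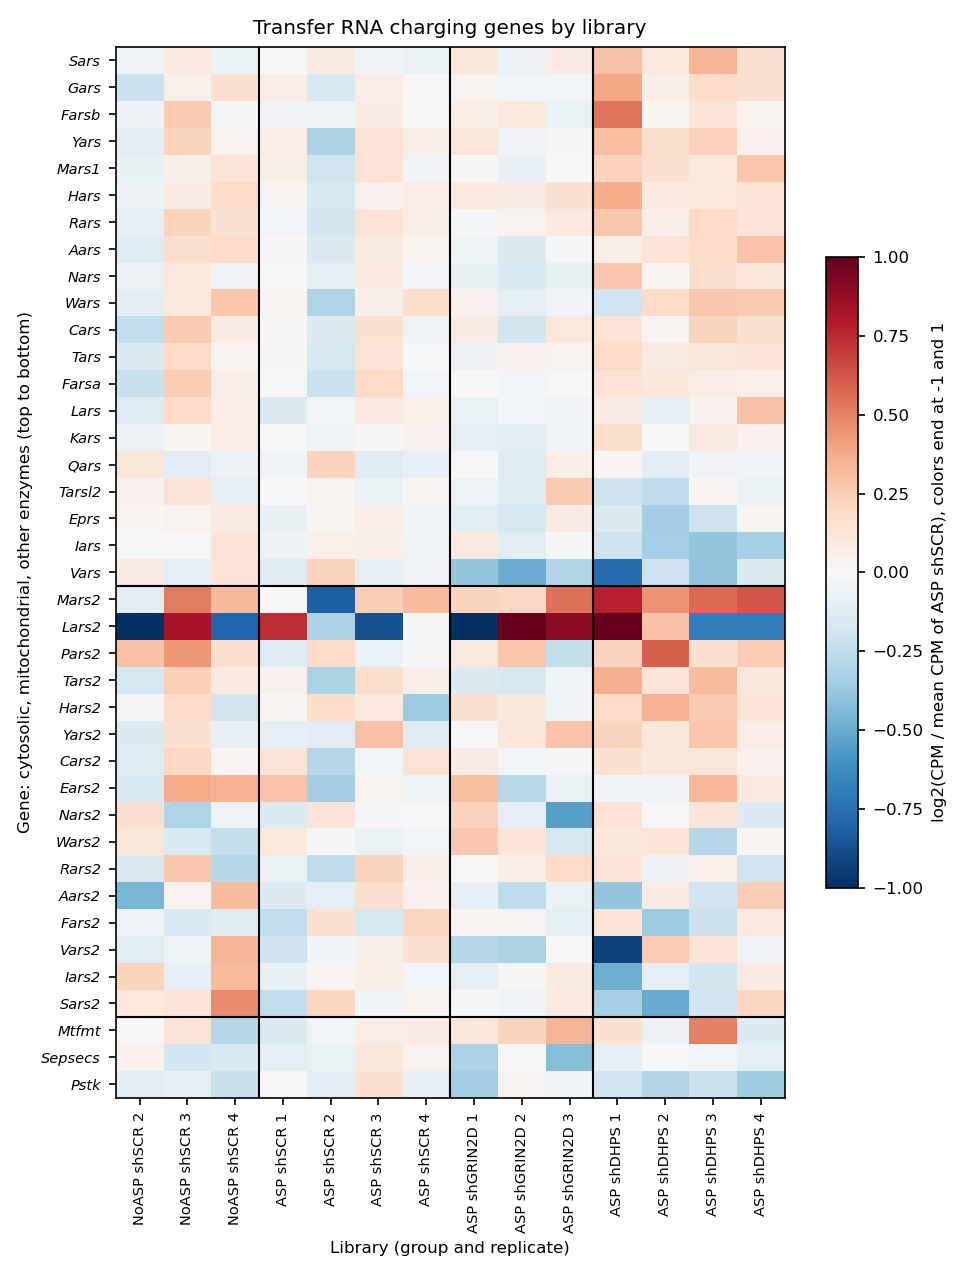
Level of 39 of the 41 genes (rows) in the 14 libraries (columns) as log2 of CPM over the mean CPM of ASP shSCR, with colors that end at -1 and 1 and black lines between gene classes and between groups. Most cytosolic rows are pale red in the ASP shDHPS columns, Iars is blue in all 4 of them, and Lars2 changes color within every group.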

How the data were processed

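Polyadenylated RNA from cytosolic lysates of 14 spheroid libraries was measured, and groups and replicate numbers came from the sample labels. The authors trimmed the reads (Trim Galore 0.6.6), mapped them to GRCm39 (STAR 2.6.1) and estimated gene abundance (Salmon 1.4.0). The deposited values are these estimated counts rounded to whole numbers, and genes not expressed in 2 or more replicates of any condition had been dropped. Reads that match several near-identical transcripts were apportioned by Salmon's model. The authors' tables of fold changes and gene set scores for 1 comparison were not used. The labels number the samples, but p-values measure only the spread between these samples.

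Counts were tested with edgeR 4.0.16 in R 4.3.3 (TMM factors 0.984 to 1.02, quasi-likelihood, all 14 libraries, group only). Genes were called at a Benjamini-Hochberg adjusted p under 0.05 over 19525 genes. CPM were scaled by TMM, and log2 CPM used a prior count of 2. The named genes were every gene of the 41 called in any comparison, the largest positive and negative value per class and comparison among genes of at least 5 CPM, a fixed list (of which Nars, Nars2, Eprs, Mars1, Mars2 and Mtfmt are reported), and partner genes called. Some items are not reported here by name. Members, lists and rules were chosen with earlier results of these data known.

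Deviations of same-numbered samples from their group means correlated at 0.513, 0.287 and 0.196 for replicates 2, 3 and 4 of the 2 shSCR groups, so the number paired these samples. In the other comparisons at least 1 pair was under 0.1. The alternatives were DESeq2 1.42.0, RLE size factors, library size alone, a low-count filter (filterByExpr, 13421 genes kept), only the groups compared, the replicate block, each library left out, and both shSCR libraries numbered 2 left out.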

Additional observations from a re-analysis of the deposited data

How the results depend on the processing

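Of the 4 counts of called genes, each moved with the processing. With the replicate block fitted to only the groups compared, 1 gene was called for aspartate (Lars2, whose same-numbered pairs differed in direction), 1 for the Grin2d hairpin (Vars), 4 for the Dhps hairpin (Iars, Lars2, Mars2, Vars) and 1 between hairpins (Tars2), beside 0.343%, 1.86%, 10.4% and 7.86% of all genes. Fitted to all libraries, the replicate block gave 0, 1 (Vars), 3 (Iars, Mars2, Vars) and 3 (Iars, Nars, Tars2), beside 0.0102%, 3.13%, 11% and 7.52% of all genes. For the Dhps hairpin, 3 of 41 is 7.32%. The labels do not say what a replicate number stands for. Same-numbered samples correlated for aspartate and, except for replicate 4, for the Dhps hairpin, and less evenly in the other comparisons. DESeq2 called 4 genes for the Dhps hairpin (Iars, Mars2, Sars, Vars) and 2 between hairpins (Iars, Nars), or 9.76% and 4.88% of the 41, beside 10.5% and 7.13% of the genes to which it gave an adjusted p. Fitting only the groups compared called 1 for the Grin2d hairpin (Vars), 0 for the Dhps hairpin and 0 between hairpins, beside 1.92%, 3.45% and 3.63% of all genes. Library size alone called 0 between hairpins, beside 2.66% of all genes. Leaving out both shSCR libraries numbered 2 called 0 for the Dhps hairpin, beside 2.9% of all genes. With 1 library left out, the counts were 0 to 2 for the Dhps hairpin, beside 2.11% to 4.58% of all genes. They were 0 without ASP shSCR replicate 2, ASP shDHPS replicate 2 or ASP shDHPS replicate 3. Between hairpins the counts were 0 to 1, beside 1.07% to 2.96% of all genes. The cause of these changes was not tested. Over the alternatives, the cytosolic median ranged from 0.08 to 0.18 for the Dhps hairpin, 0.12 to 0.16 between hairpins, -0.0553 to 0.0209 for the Grin2d hairpin and -0.11 to 0.0154 for aspartate. The mitochondrial median ranged from -0.00144 to 0.0920, 0.0271 to 0.0991, -0.0107 to 0.0438 and -0.12 to 0.0190 in the same order.

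Some fitted values that were not called in the main test changed sign. Those of Lars2 were spread widely and not only near 0, and Lars2 was called for aspartate in 1 of 15 alternatives. For aspartate, Lars2 was -0.14 without both libraries numbered 2, and Nars was -0.00908 with library size alone, -0.0170 with the replicate block over all libraries and -0.00181 without both libraries numbered 2. For the Grin2d hairpin, Iars was -0.0178 with library size alone and -0.0164 with the replicate block and only the groups compared. With 1 library left out, the aspartate values ranged from -0.23 to 1.29 for Lars2, -0.0331 to 0.0572 for Nars, -0.0644 to 0.171 for Nars2, -0.0716 to 0.128 for Mtfmt and -0.0988 to 0.0177 for Mars1. The Grin2d hairpin values ranged from -0.0443 to 0.0568 for Iars, -0.288 to 0.0885 for Nars2 and -0.0858 to 0.0249 for Mars1. The Dhps hairpin values ranged from -0.00314 to 0.0975 for Nars2 and -0.00634 to 0.221 for Mtfmt. Between hairpins they ranged from -1.09 to 0.38 for Lars2 and -0.0466 to 0.330 for Nars2. The summed mitochondrial level without Lars2, 284 CPM, was added after the data were seen.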
